A study of Mus musculus with 12 samples.

Results

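Amino acid carriers of the solute carrier (SLC) families 1, 3, 6, 7, 36, 38 and 43 were followed in the livers of 12 mice. The members were all genes of the count table whose mouse symbol belongs to these families and that had at least 10 counts in 3 or more libraries. Of 61 symbols of these families in the table, 34 met this minimum and 27 did not. Slc7a6, Slc7a11 and Slc38a11 met it only through libraries with oncogenes, so they were admitted because they were high there. The table held 27179 genes in all. Libraries came from 4 groups of 3 mice, with 1 bulk liver library per mouse. CD Vec mice ate chow diet (CD) and received empty vector (Vec), which the titles call WT. CD c-MET/β-catenin mice ate chow diet and received plasmids for c-MET and ΔN90-β-catenin, a β-catenin without its N-terminal stretch that escapes degradation. Low-protein diet (LPD) was given with the same injections to the LPD Vec mice and to the LPD c-MET/β-catenin mice. Livers and libraries with c-MET/β-catenin are also called oncogene livers and oncogene libraries. By the methods of the study the mice were young adult males, and plasmids were injected hydrodynamically into the tail vein together with Sleeping Beauty transposase, so the vector controls underwent the injection as well. Only hepatocytes that take up the plasmids express the oncogenes, so tumor and surrounding tissue were measured together. All groups were harvested when the CD c-MET/β-catenin mice reached their end point. The strain is not settled, since the methods name C57/Bl3 and, for a related experiment, Bl/6, and the text of the study a mixed background of 129/Ola with C57BL/6 for this tumor model. The labels give the cell type as hepatocyte and the tissue as liver.

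Hepatocytes take amino acids from portal blood for gluconeogenesis, protein synthesis and ureagenesis, and the carriers that they use differ along the lobule. Periportal cells take up alanine and glutamine and break them down, whereas cells next to the central vein, where β-catenin is active, take up glutamate and make glutamine from it. Carriers of the SLC1, SLC6, SLC36 and SLC38 families move their substrates with sodium or protons or by exchange, and the light chains of the SLC7 family reach the membrane bound to a heavy chain of the SLC3 family. When amino acids run short, the transcription factor ATF4 raises many of these genes through C/EBP-ATF response elements.

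Promoter windows were read for the members from RefSeq on GRCm38.p6, from 250 bases before to 50 bases after each annotated start, and 25 members had one whereas 9 did not. The response element core TGATGNAA, searched on both strands, was present in 3.97% of all 32851 windows and in 4 of 42 member windows. By gene these were 4.51% of all genes and 3 of 25 members, Slc1a4, Slc7a7 and Slc7a11. The TCF/LEF letters CTTTGAT, through which β-catenin reaches DNA, were present in 3.73% of all windows and in 5 of 42 member windows. By gene these were 4.29% of all genes and 5 of 25 members, Slc1a2, Slc6a16, Slc7a1, Slc38a9 and Slc38a10. No member window held both motifs. The 4 stretches below belong to carriers described in the next paragraphs, are written 5′ to 3′ on the strand of the gene, and carry the matching letters in capitals.
Slc7a11, chr3:50443634-50443733, minus strand: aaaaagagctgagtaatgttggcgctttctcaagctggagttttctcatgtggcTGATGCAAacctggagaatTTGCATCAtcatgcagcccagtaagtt
Slc1a4, chr11:20332710-20332809, minus strand: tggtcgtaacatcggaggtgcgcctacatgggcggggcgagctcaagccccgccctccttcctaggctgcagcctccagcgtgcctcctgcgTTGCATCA
Slc7a7, chr14:54417938-54418044, minus strand: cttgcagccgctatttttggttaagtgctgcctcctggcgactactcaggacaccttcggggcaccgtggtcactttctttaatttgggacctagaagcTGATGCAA
Slc1a2, chr2:102706188-102706287, plus strand: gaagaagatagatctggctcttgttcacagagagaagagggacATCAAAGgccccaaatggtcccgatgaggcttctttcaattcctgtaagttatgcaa
The first bases of the matches in these stretches lay at -66 and -47 from the annotated start in Slc7a11, at -4 in Slc1a4, at -1 in Slc7a7 and at -207 in Slc1a2. In Slc7a11, Slc7a7 and Slc1a2 this start lies inside the span that RefSeq gives the gene, so it is 1 of several. A match of letters is a description of the window, and binding was not measured in these libraries.

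Each library held between 19476209 and 31990267 counts, and 13947 genes, including all 34 members, had enough counts to be tested. The sum of 9 hepatocyte markers, to which Alb contributed most, was between 85000 and 139000 CPM (counts scaled to library size) in all libraries. With oncogenes on CD 4 of the 9 fell, among them Tdo2 (log2 -1.96) and Serpina1c (-1.99), and 1 rose, Trf (0.74), where 16.7% of all genes tested fell and 18.7% rose. Markers of other cells differed between the groups. Together 6 proliferation genes stood at 5.34 to 12.7 CPM in CD Vec and 112 to 162 CPM in CD oncogene livers, and at 6.56 to 7.60 CPM in LPD Vec and 17.3 to 48.7 CPM in LPD c-MET/β-catenin. Cholangiocyte markers summed to 36.8 to 46.3 CPM in CD Vec and 121 to 382 CPM in CD oncogene livers, against 40.8 to 57.7 CPM in the LPD libraries. Most of this sum was Spp1, which went from 34.7 ± 5.64 to 253 ± 131 CPM on CD. Spp1 and Krt19 rose, and Sox9 (log2 -0.41), Epcam (-0.50) and Krt7 (0.33) did not pass. Stellate cell markers lay between 252 and 611 CPM in CD c-MET/β-catenin and between 218 and 311 CPM elsewhere, and on CD 4 of 7 rose and 2 fell with oncogenes, read against the same shares of all genes. Col1a1 went from 8.12 ± 1.97 to 123 ± 89.2 CPM, whereas Dcn went from 126 ± 17.3 to 51.1 ± 6.72 CPM and Lrat from 21.7 ± 8.06 to 8.13 ± 2.62 CPM. Macrophage markers were at 105 to 238 CPM in CD Vec and 193 to 358 CPM in CD oncogene livers, and at 159 to 202 CPM in LPD Vec and 213 to 381 CPM in LPD c-MET/β-catenin. The part of these shifts in the carrier results was not tested, and in bulk RNA fewer cells of a type and less RNA per cell cannot be told apart. CD Vec replicate 2 and CD oncogene replicate 1 stood apart from their group, with correlations to their group mates of 0.961 to 0.967 on log2 CPM, whereas all other pairs within a group lay between 0.980 and 0.988. Header numbers of the columns form 3 runs. CD oncogene replicates 1 and 2 are alone in 1 run and 3 Vec libraries in another, and the 7 remaining libraries, from all 4 groups, share the middle run.

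Sodium-coupled carriers were the most abundant in control liver when levels were set per exon length (RPKM, which is CPM per kilobase). In CD Vec the highest level was that of Slc38a3, the system N glutamine carrier, at 448 RPKM, followed by Slc38a4, a system A carrier of hepatocytes, at 298 RPKM. Slc6a13, a carrier of GABA and taurine, followed at 70.3 RPKM, and Slc7a2, the arginine carrier of liver, at 63.9 RPKM. Slc6a12, the betaine carrier, stood at 26.2 RPKM and Slc1a2, a glutamate carrier, at 11.7 RPKM. The cystine and glutamate exchanger Slc7a11 was lowest with 0.00493 RPKM. In CD c-MET/β-catenin the order had changed, since Slc1a2 averaged 72.7 RPKM and the neutral amino acid exchanger Slc1a4 rose from 1.22 RPKM in CD Vec to 21.5 RPKM. The length is the union of all annotated exons, which can be longer than the transcript in liver.

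**Figure D1:**
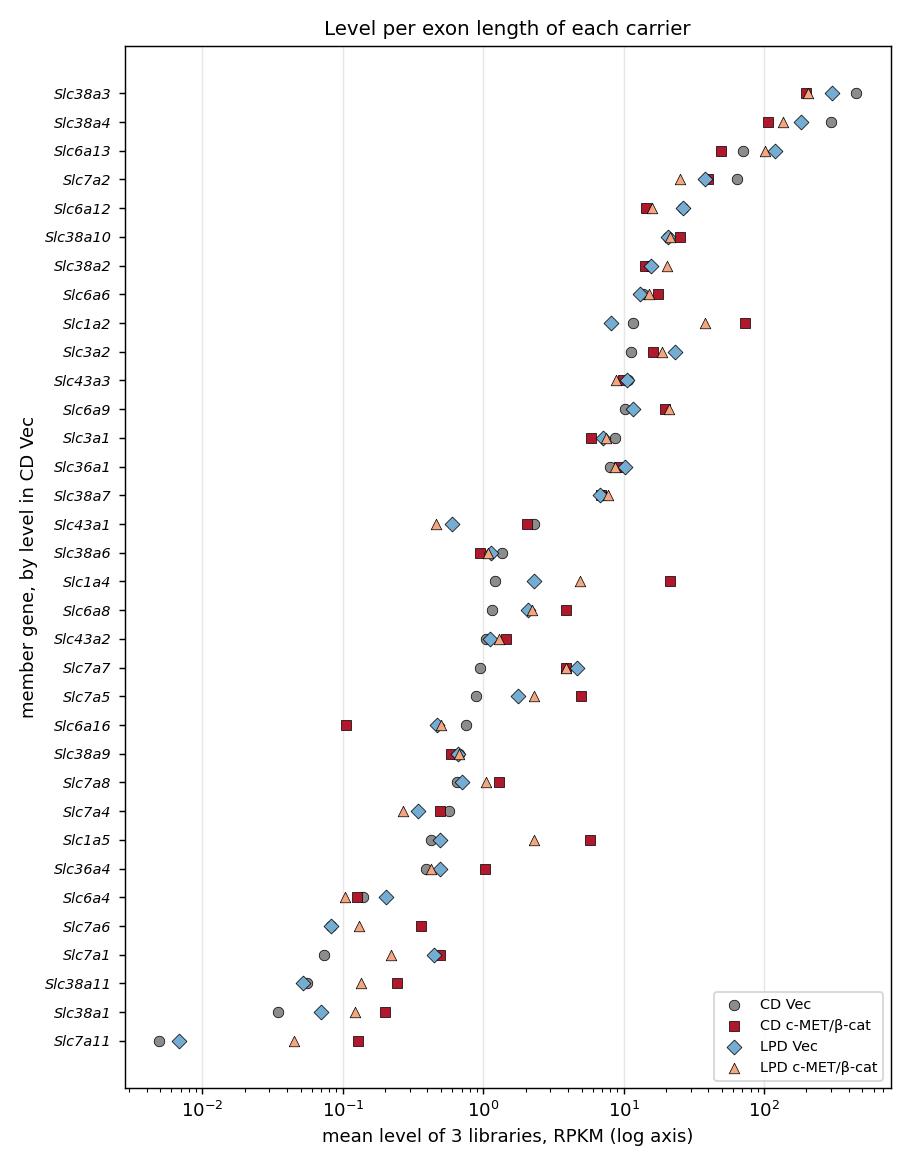
Level of each of the 34 carriers per exon length (mean of 3 libraries, RPKM, log axis) in the 4 groups, with genes ordered by their level in CD Vec. Slc38a3 and Slc38a4 are at the top in all groups, and Slc1a2, Slc1a4 and Slc1a5 lie far to the right of their CD Vec level in CD c-MET/β-catenin.

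With oncogenes on chow diet the SLC1 carriers and the light chains of SLC7 were higher. Some abundant sodium-coupled carriers, among them Slc38a3, Slc38a4 and Slc6a13, were lower, whereas others, such as Slc1a2 and Slc6a9, were higher. In CD c-MET/β-catenin against CD Vec, 19 of the 34 members passed an adjusted p of 0.05 (edgeR quasi-likelihood test, Benjamini-Hochberg over all genes tested), whereas 35.4% of all genes tested did. Of these, 14 were higher, where 18.7% of all genes were, and 5 were lower, where 16.7% of all genes were. The median log2 fold change was 0.32 over the members and -0.01 over all genes tested. Without the 3 members that met the minimum only through oncogene libraries, 12 of 31 were higher and 5 lower, with a median of 0.21. The 3 tested SLC1 members rose. Of the SLC7 light chains 5 of the 10 listed were tested and rose, of which Slc7a6 and Slc7a11 were admitted through the oncogene libraries, and neither of the 2 SLC3 heavy chains passed the test. In the SLC38 family 2 members rose and 2 fell of 9, and in SLC6, which also carries neurotransmitters and osmolytes, 2 rose and 3 fell of 7. With a term for the header runs 7 of the 19 calls passed, those of Slc1a2, Slc1a4, Slc1a5, Slc7a5, Slc7a11, Slc6a8 and Slc38a4. The term ended the calls of Slc7a1, Slc7a6, Slc7a7, Slc7a8, Slc38a1, Slc38a3, Slc38a10, Slc6a9, Slc6a12, Slc6a13, Slc6a16 and Slc36a4. Within the middle run, which leaves 1 library per group, all 19 had the sign of the whole set, but these libraries are part of that set and 16 of the 19 values were smaller. Log2 ratios of CPM with 0.1 added were 0.44 for Slc7a6, 0.48 for Slc36a4, 0.15 for Slc38a10, 0.58 for Slc6a9, 1.55 for Slc38a1, 1.62 for Slc7a5, 1.67 for Slc7a1 and -1.60 for Slc6a16, each smaller than the fitted value by over 1.5 times. The fit of the CD libraries alone kept 16 of the 19 and ended those of Slc6a13, Slc36a4 and Slc38a10. Without CD Vec replicate 2 the test called 19 members, 17 of them shared, and without CD oncogene replicate 1 it called 17, of which 16 were shared.

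**Figure D2:**
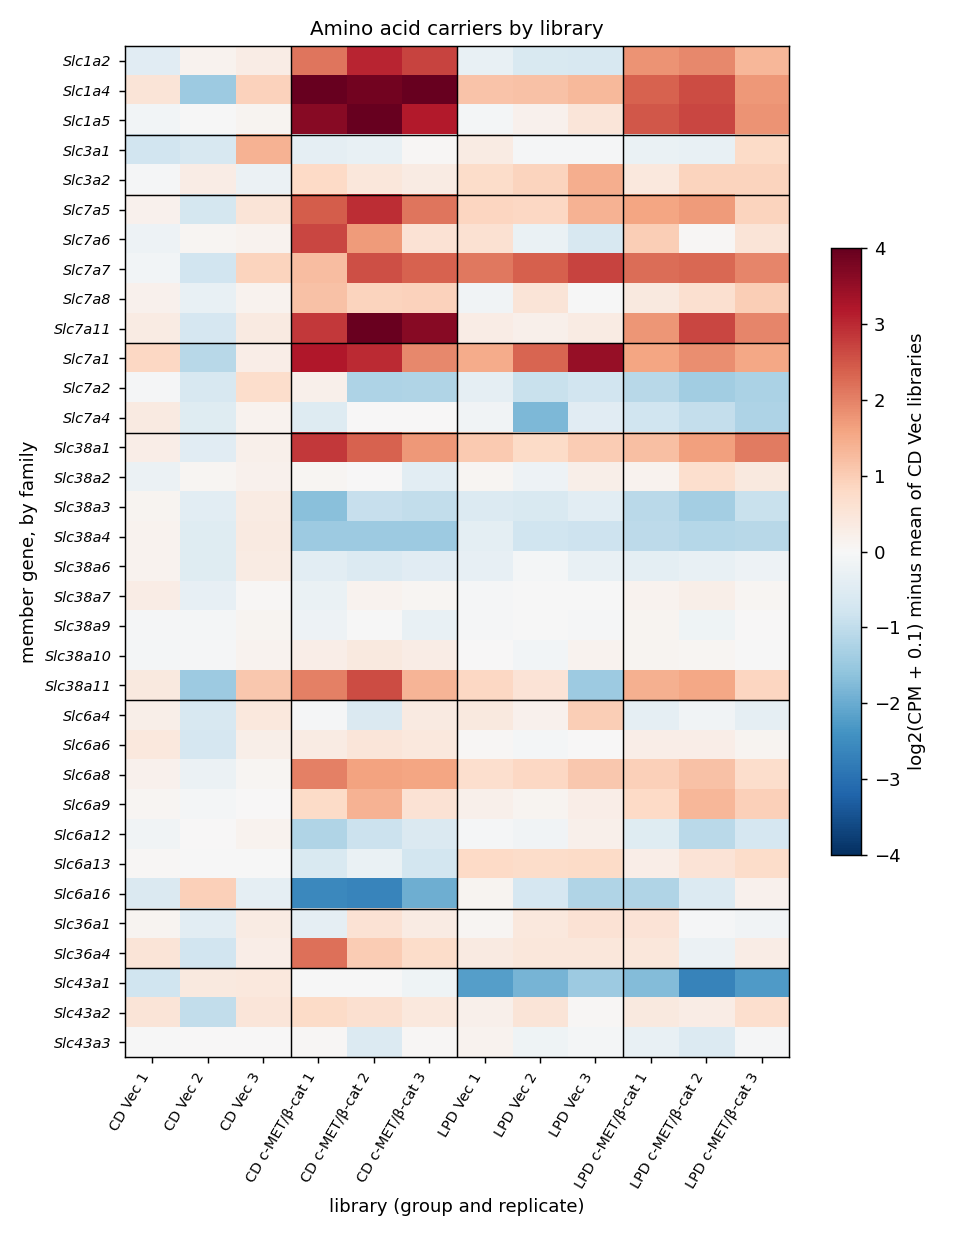
Level of the 34 carriers (rows, grouped by family) in each of the 12 libraries (columns), as log2(CPM + 0.1) minus the mean of the 3 CD Vec libraries, where red is above and blue below that mean. The SLC1 rows and the SLC7 light chains other than Slc7a7 are on average darkest in CD c-MET/β-catenin, where Slc38a3, Slc38a4 and Slc6a16 are blue, and Slc43a1 is blue in all LPD libraries.

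Slc1a2 takes glutamate into hepatocytes around the central vein, where glutamine synthetase is made. It stood at 111, 167 and 184 CPM in CD Vec and at 659, 1231 and 972 CPM in CD c-MET/β-catenin. On LPD it measured 122.5, 99.3 and 96.5 CPM in Vec and 526, 573 and 381 CPM in c-MET/β-catenin. The groups with and without oncogenes did not overlap on either diet, with log2 fold changes of 2.63 ± 0.27 (SE) on CD (adjusted p = 4.00e-05) and 2.22 ± 0.26 on LPD (adjusted p = 0.00182). Slc1a4 exchanges alanine, serine and cysteine. Its levels were 5.60, 1.36 and 7.45 CPM in CD Vec and 119, 58.1 and 76.0 CPM in CD c-MET/β-catenin, an increase of 4.12 ± 0.49 on the log2 scale (adjusted p = 0.000131). LPD Vec livers had 8.59, 8.87 and 9.74 CPM and LPD c-MET/β-catenin livers 20.2, 24.0 and 13.1 CPM. These did not overlap, yet the log2 fold change of 1.07 ± 0.44 did not pass (adjusted p = 0.378). Slc1a5 exchanges glutamine for other neutral amino acids. It stood in CD Vec at 1.63, 1.76 and 1.93 CPM and in CD c-MET/β-catenin at 23.2, 32.3 and 16.7 CPM. The LPD values were 1.68, 1.99 and 2.51 CPM in Vec and 10.3, 11.9 and 6.43 CPM in c-MET/β-catenin. Slc1a5 rose on both diets, by 3.76 ± 0.31 (adjusted p = 1.73e-05) and 2.21 ± 0.29 (adjusted p = 0.00347) on the log2 scale.

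Light chains of the SLC7 family form the exchangers of large neutral and cationic amino acids. Slc7a5 (LAT1) imports leucine and other large neutral amino acids in exchange for glutamine. It measured 3.52, 1.88 and 4.48 CPM in CD Vec and 17.0, 24.4 and 13.9 CPM in CD c-MET/β-catenin, a log2 fold change of 2.48 ± 0.34 (adjusted p = 0.000247). In LPD Vec it stood at 5.76, 5.62 and 8.31 CPM and in LPD c-MET/β-catenin at 9.43, 10.3 and 5.86 CPM, so the LPD groups overlapped. Slc7a7 (y+LAT1) exports cationic amino acids. Its CD Vec values of 2.55, 1.59 and 5.21 CPM were below the CD c-MET/β-catenin values of 6.64, 17.0 and 14.6 CPM, and it rose by 2.03 ± 0.41 on the log2 scale (adjusted p = 0.00284). In LPD livers Slc7a7 was at 12.4, 14.9 and 18.5 CPM with Vec and at 13.3, 13.9 and 11.2 CPM with oncogenes, all above the CD Vec libraries.

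Slc7a11 (xCT) exchanges cystine for glutamate and was nearly absent from the control livers, with 2, 0 and 2 counts in CD Vec and 2 counts in each LPD Vec library. The CD c-MET/β-catenin libraries held 36, 59 and 51 counts and the LPD c-MET/β-catenin libraries 9, 26 and 12. Scaled for library size, the ratio of the summed counts was 24.0 on CD, with an exact 95% interval of 9.17 to 89.2, and 6.98 on LPD, with an interval of 2.98 to 20, which cover counting error only. These values describe a member that the count minimum admitted through oncogene libraries alone, so a difference from Vec was built in. The fitted log2 fold change was 4.55 ± 0.61 on CD (adjusted p = 0.000231) and 2.69 ± 0.61 on LPD (adjusted p = 0.0577). Its levels remained low also with oncogenes, at 1.78 ± 0.69 CPM (SD) on CD.

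The remaining light chains rose less or from lower levels. Slc7a8 (LAT2), another carrier of neutral amino acids, rose from 3.22 ± 0.58 to 6.46 ± 0.68 CPM (log2 1.0 ± 0.24, adjusted p = 0.00729). Slc7a6 (y+LAT2) rose from 0.373 ± 0.0594 to 1.65 ± 1.17 CPM (log2 2.14 ± 0.59, adjusted p = 0.0143), and without CD oncogene replicate 1 this was 1.42 with an adjusted p of 0.0713. Slc3a2 (CD98), the heavy chain that all 5 bind, stood at 37.7, 48.6 and 33.2 CPM in CD Vec and 68.4, 54.2 and 49.2 CPM in CD c-MET/β-catenin. These did not overlap, but the log2 fold change of 0.52 ± 0.22 did not pass (adjusted p = 0.0804). The other heavy chain, Slc3a1, whose light-chain partner Slc7a9 was below the count minimum, ranged from 8.97 to 40.2 CPM within CD Vec alone.

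Among the carriers of cationic amino acids, Slc7a1 (CAT1), the widespread arginine and lysine carrier that normal liver makes little of, rose on CD. It was at 1.38, 0.284 and 0.885 CPM in CD Vec and at 7.54, 6.45 and 3.03 CPM in CD c-MET/β-catenin, and the log2 fold change was 2.72 ± 0.59 (adjusted p = 0.00408). On LPD the libraries measured 2.21, 4.06 and 9.18 CPM with Vec and 2.35, 2.91 and 2.32 CPM with oncogenes. The Vec livers on LPD therefore reached the range of the oncogene livers on CD, with a wide spread. Slc7a2, at 584 ± 273 CPM in CD Vec and 363 ± 226 CPM in CD c-MET/β-catenin, overlapped between these groups (log2 -0.68 ± 0.40, adjusted p = 0.204). Slc7a4, for which no transport is established, had means of 1.10 to 2.35 CPM.

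Both abundant SLC38 carriers fell on CD, Slc38a3 not with the header run term. Slc38a4 stood at 1362, 877 and 1573 CPM in CD Vec and at 455, 455 and 452 CPM in CD c-MET/β-catenin, and decreased by 1.49 ± 0.20 on the log2 scale (adjusted p = 0.000247). In LPD Vec it was 946, 704 and 688 CPM and in LPD c-MET/β-catenin 598, 555 and 568 CPM. On each diet every oncogene library was below every Vec library, but on LPD the log2 fold change was -0.44 ± 0.20 (adjusted p = 0.442). Slc38a3 averaged 2364 ± 582 CPM in CD Vec and 1048 ± 276 CPM in CD c-MET/β-catenin, with a log2 fold change of -1.17 ± 0.23 (adjusted p = 0.00240), against 1606 ± 102 and 1079 ± 180 CPM on LPD (log2 -0.57 ± 0.23, adjusted p = 0.360). Slc38a1, a system A carrier of other tissues, rose from 0.596 ± 0.172 to 3.41 ± 1.25 CPM (log2 2.5 ± 0.37, adjusted p = 0.000421). Slc38a2, the system A carrier that amino acid shortage induces in cultured cells, was at 135 ± 19.4 CPM in CD Vec and 125 ± 22.2 CPM in CD c-MET/β-catenin and passed in no comparison. The lysosomal glutamine carrier Slc38a7 had means of 27.9 to 31.8 CPM and the lysosomal arginine sensor Slc38a9 of 9.90 to 11.2 CPM. Slc38a10 was called at 0.30 ± 0.11 (adjusted p = 0.0478), a call that leaving out any of 10 libraries ended, with adjusted p up to 0.137. Slc38a6 and Slc38a11 were not called. Slc38a11, at means of 0.227 to 1.05 CPM, likewise admitted through oncogene libraries, had a log2 fold change of 2.07 ± 0.80 on CD (adjusted p = 0.0622).

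In the SLC6 family the carriers of creatine and glycine rose and those of betaine and GABA fell. Slc6a8, the creatine carrier, was at 6.67, 5.0 and 6.30 CPM in CD Vec and at 24.4, 18.4 and 17.9 CPM in CD c-MET/β-catenin, an increase of 1.75 ± 0.20 on the log2 scale (adjusted p = 7.56e-05). The LPD livers lay between these groups, with 9.45, 10.6 and 12.7 CPM in Vec and 11.5, 13.6 and 9.71 CPM in c-MET/β-catenin. Slc6a9 (GLYT1), a glycine carrier, rose from 52.7 ± 3.21 to 102 ± 31.5 CPM on CD (log2 0.95 ± 0.20, adjusted p = 0.00280). On LPD it was at 60.2 ± 3.61 and 109 ± 20.5 CPM, which did not overlap (log2 0.85 ± 0.19, adjusted p = 0.0589). Slc6a12 fell from 80.0 ± 8.42 to 43.9 ± 9.39 CPM on CD (log2 -0.87 ± 0.18, adjusted p = 0.00334), and on LPD had 80.9 ± 9.90 and 48.3 ± 9.60 CPM (log2 -0.74 ± 0.18, adjusted p = 0.0781). Slc6a13 lies next to Slc6a12 on chromosome 6. It measured 209, 202 and 201 CPM in CD Vec and 135, 170.2 and 124 CPM in CD c-MET/β-catenin, and fell by 0.51 ± 0.15 (adjusted p = 0.0196). In LPD Vec it stood at 354, 337 and 349.6 CPM and in LPD c-MET/β-catenin at 243, 296 and 341 CPM, all above both CD groups. Leaving out CD Vec replicate 1 (adjusted p = 0.0502), CD oncogene replicate 1 (0.0512) or replicate 3 (0.0657) ended the CD call of Slc6a13. Slc6a16, whose substrate is unknown, was at 1.32, 3.98 and 1.56 CPM in CD Vec and at 0.260, 0.245 and 0.449 CPM in CD c-MET/β-catenin. It fell by 2.83 ± 0.58 (adjusted p = 0.00280), while in LPD libraries it was at 2.21, 1.22 and 0.821 CPM with Vec and 0.831, 1.37 and 2.32 CPM with oncogenes. The taurine carrier Slc6a6 had means of 110 to 147 CPM and the serotonin carrier Slc6a4 of 0.468 to 0.925 CPM, and neither passed in any comparison.

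Of the SLC36 carriers, Slc36a4, which carries proline and tryptophan, was at 3.46, 1.36 and 2.86 CPM in CD Vec and at 11.3, 4.94 and 4.04 CPM in CD c-MET/β-catenin. Its log2 fold change of 1.40 ± 0.41 (adjusted p = 0.0199) depended on single libraries. It was 0.80 without CD oncogene replicate 1 (adjusted p = 0.103) and 1.09 without CD Vec replicate 2 (adjusted p = 0.0620). On LPD the libraries held 3.07, 3.34 and 3.28 CPM with Vec and 3.32, 2.0 and 2.97 CPM with oncogenes. The lysosomal carrier Slc36a1 had means of 45.0 to 57.2 CPM. None of the 3 SLC43 members passed with oncogenes on CD. Slc43a3, a purine nucleobase carrier rather than an amino acid carrier, had means of 39.4 to 48.1 CPM, and the neutral amino acid carrier Slc43a2 of 10.4 to 14.6 CPM.

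On low-protein diet few carriers passed the test with oncogenes. In LPD c-MET/β-catenin against LPD Vec, 2 of 34 members passed, where 1.32% of all genes tested did, and both were higher, against 1.15% of all genes higher and 0.165% lower. They were Slc1a2 and Slc1a5, whose values are given above. At an unadjusted p under 0.05 there were 11 members, against 11.1% of all genes. The median over the members was 0.05 on the log2 scale and that over all genes 0.01. Leaving out any of the 12 libraries kept both calls, and without CD oncogene replicate 1 there were 4. DESeq2 called 5 members, 2 of them shared, and a fit of these 6 libraries alone called 6.

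**Figure D3:**
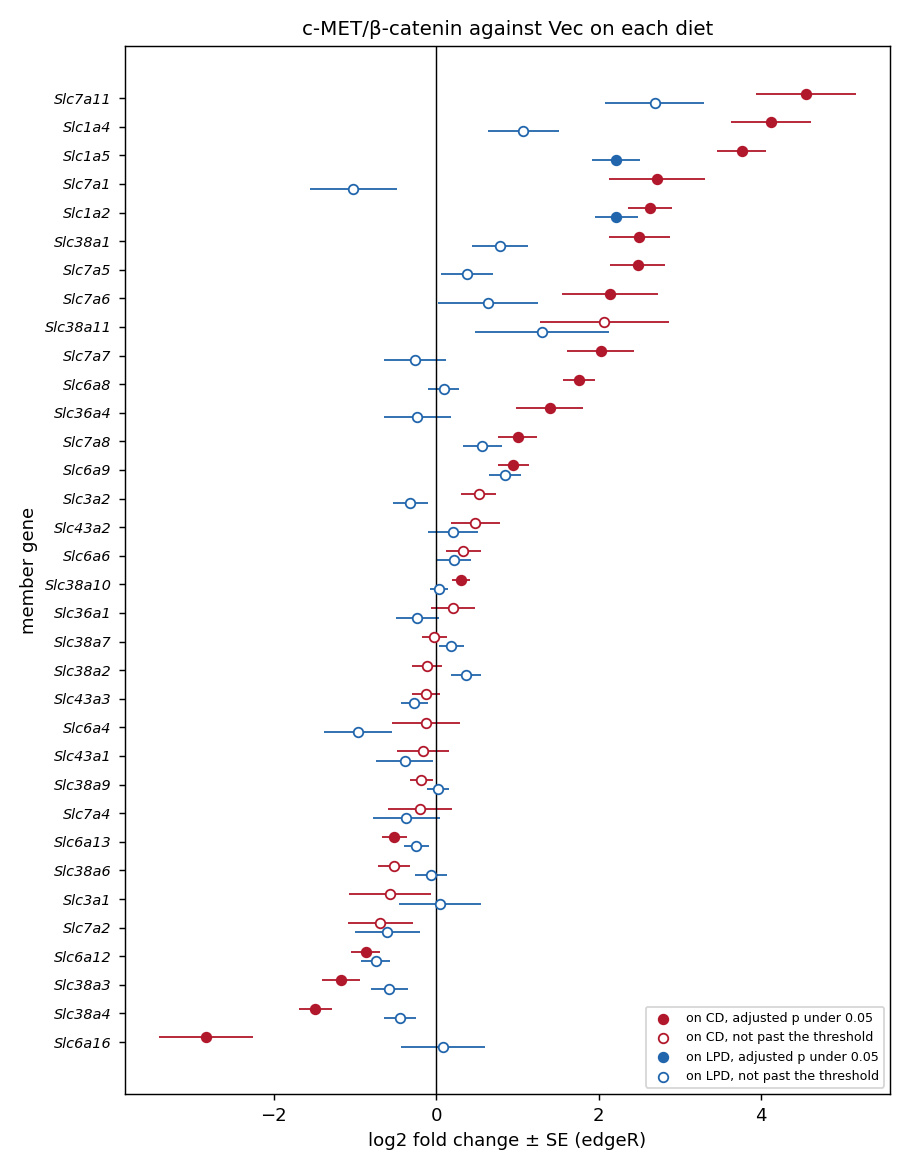
Log2 fold change of oncogene livers against Vec livers for each carrier (points, with lines of 1 SE) on CD in red and LPD in blue, where filled points passed an adjusted p of 0.05. The red points spread from -2.83 (Slc6a16) to 4.55 (Slc7a11), and only Slc1a2 and Slc1a5 have filled blue points.

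Low-protein diet by itself moved Slc7a7 up and Slc43a1 down. In LPD Vec against CD Vec these were 2 of 34 members, where 0.308% of all genes tested passed. Slc7a7 rose by 2.29 ± 0.42 on the log2 scale (adjusted p = 0.0478). Slc43a1 (LAT3), a leucine carrier that works without exchange, stood at 6.93, 15.9 and 16.4 CPM in CD Vec and at 2.54, 3.30 and 4.36 CPM in LPD Vec, and fell by 1.94 ± 0.34 (adjusted p = 0.0362). In livers with oncogenes it measured 12.02, 12.2 and 10.8 CPM on CD and 3.57, 1.82 and 2.45 CPM on LPD, so every LPD library was below every CD library. These calls were weak. Slc7a7 was lost when any of 9 libraries was left out (adjusted p up to 0.193) and Slc43a1 when any of 6 was (adjusted p up to 0.184), and neither passed without CD Vec replicate 2, any LPD Vec replicate or LPD oncogene replicate 3. The count was 1 without CD Vec replicate 1 or 3, CD oncogene replicate 3, or LPD oncogene replicate 1 or 2. DESeq2 called 7 members, both of these among them, whereas the fit of the Vec libraries alone and the fit with header runs called 0. At an unadjusted p under 0.05 edgeR had 10 members, against 9.87% of all genes. Slc7a1, with 2.58 ± 0.59 (adjusted p = 0.0886), Slc3a2, with 1.04 ± 0.22 (adjusted p = 0.0690), Slc6a8, with 0.86 ± 0.20 (adjusted p = 0.0837), and Slc6a13, with 0.76 ± 0.15 (adjusted p = 0.0605), had the smallest adjusted p among the members that did not pass.

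In livers with oncogenes, the SLC1 carriers and Slc43a1 were lower on low-protein diet. Comparing LPD with CD oncogene livers, 10 of 34 members passed, where 20% of all genes tested did. Of these 8 were lower, where 11.3% of all genes were, and 2 were higher, where 8.66% of all genes were. The lower members were Slc1a2, Slc1a4, Slc1a5, Slc7a5, Slc7a11, Slc6a8, Slc36a4 and Slc43a1, and the higher ones were Slc6a13 and Slc6a16. The comparison shares its CD oncogene libraries with that of oncogenes on CD. The study reports that LPD reduced the tumor burden at this harvest, measured as liver to body weight ratio. In oncogene livers the 6 proliferation genes summed to 112 to 162 CPM on CD and 17.3 to 48.7 CPM on LPD. The part of tumor content in the differences between the diets was not tested. Slc43a1 fell by 2.17 ± 0.34 (adjusted p = 0.00175) and Slc1a4 by 2.14 ± 0.44 (adjusted p = 0.00696), the steepest decreases. Without Slc7a11, which had 10 counts or more in only 2 LPD libraries, 7 were lower. Slc7a11 fell by 1.47 ± 0.44 (adjusted p = 0.0337), Slc1a5 by 1.33 ± 0.27 (adjusted p = 0.00556) and Slc36a4 by 1.30 ± 0.41 (adjusted p = 0.0414). Smaller decreases were those of Slc7a5 (1.11 ± 0.32, adjusted p = 0.0282), Slc1a2 (0.95 ± 0.25, adjusted p = 0.0204) and Slc6a8 (0.80 ± 0.19, adjusted p = 0.0120). Slc6a16 rose by 2.23 ± 0.58 (adjusted p = 0.0185) and Slc6a13 by 1.04 ± 0.15 (adjusted p = 0.00118). The median over the members was -0.22 on the log2 scale and that over all genes -0.01.

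The calls of Slc1a4, Slc1a5, Slc43a1 and Slc6a13 in this comparison withstood leaving out each of the 12 libraries. Slc36a4 was lost in 8 of these fits (adjusted p up to 0.195) and Slc7a11 in 7 (up to 0.122). Slc1a2 did not pass without CD oncogene replicate 2 (adjusted p = 0.0777) or LPD oncogene replicate 1 (0.0530) or replicate 3 (0.0892), and Slc7a5 without the same libraries (0.106, 0.0627 and 0.112). Slc6a16 failed without CD oncogene replicate 1 (0.0627) or replicate 2 (0.0582) or LPD oncogene replicate 3 (0.0795), and Slc6a8 without the last of these (0.0597). The number of members called was 6 without CD oncogene replicate 2 or LPD oncogene replicate 1, and 4 without LPD oncogene replicate 3. With a term for the header runs 2 members passed, Slc43a1 and Slc6a13. The fit of the oncogene libraries alone kept 7 of the 10 calls and ended those of Slc1a2, Slc36a4 and Slc7a11. Within the middle run, where CD c-MET/β-catenin has 1 library, all 10 had the sign of the whole set, of which these libraries are a part, and 8 of the 10 values were smaller. Those of Slc1a5 (-0.80), Slc7a5 (-0.70) and Slc36a4 (-0.53) were smaller by over 1.5 times.

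**Figure D4:**
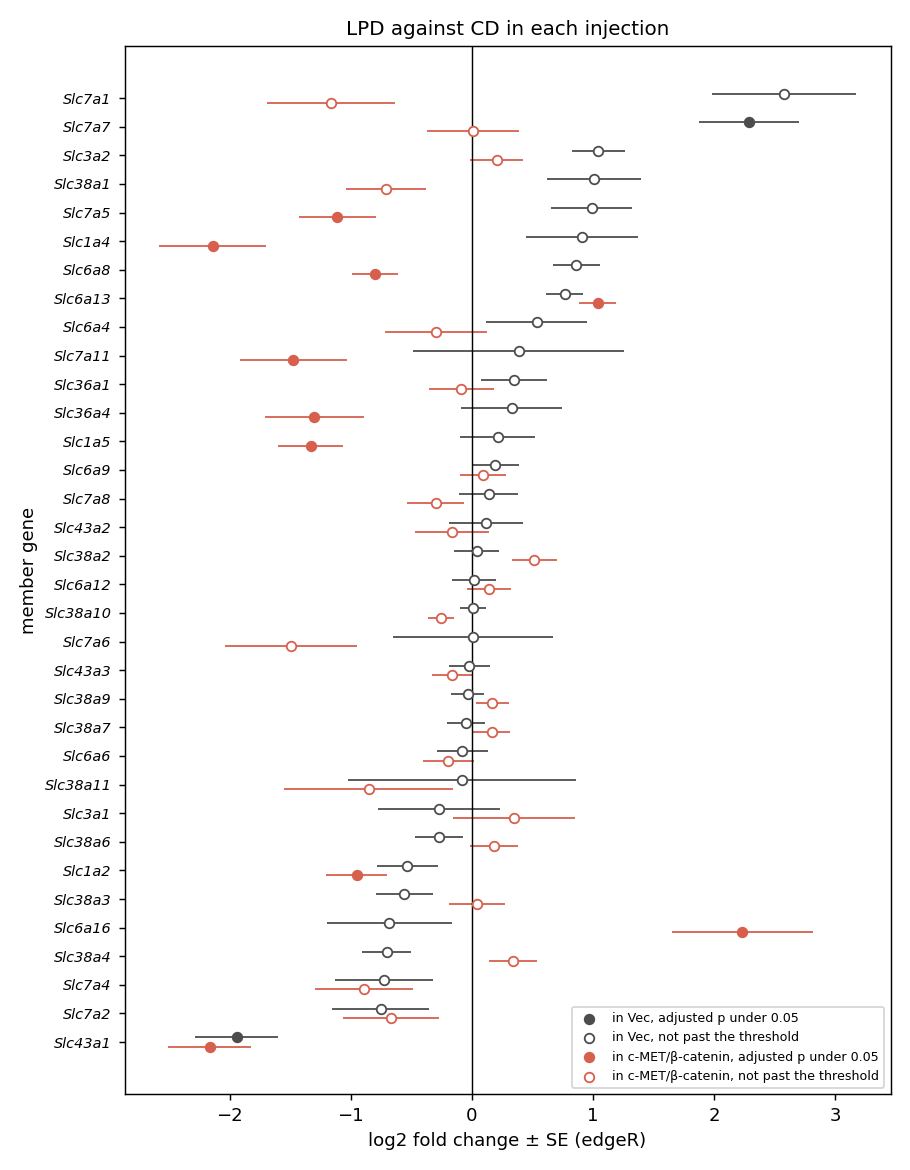
Log2 fold change of LPD against CD for each carrier (points, with lines of 1 SE) in Vec livers in grey and c-MET/β-catenin livers in red, where filled points passed an adjusted p of 0.05. Slc43a1 lies near -2 in both, Slc7a7 is filled for Vec only, and 7 other carriers are filled on the left for c-MET/β-catenin livers.

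Whether the oncogene effect differed between diets was tested by the interaction, in which the log2 effect on CD is subtracted from the log2 effect on LPD. It passed for 8 of 34 members, where 8.91% of all genes tested passed, 4.49% above 0 and 4.42% below. For Slc7a1, Slc1a4, Slc7a7, Slc7a5, Slc6a8 and Slc1a5 the effect on LPD was lower than on CD, and for Slc6a16 and Slc38a4 it was higher. Slc7a1 had the largest difference with -3.74 ± 0.80 (adjusted p = 0.0177), from 2.72 on CD to -1.02 ± 0.53 on LPD, where it did not pass (adjusted p = 0.537). Slc1a4 differed by -3.05 ± 0.63 (adjusted p = 0.0176), Slc7a7 by -2.28 ± 0.56 (adjusted p = 0.0300) and Slc7a5 by -2.10 ± 0.46 (adjusted p = 0.0197). On LPD the last pair had log2 fold changes of -0.26 ± 0.38 (adjusted p = 0.906) and 0.38 ± 0.32 (adjusted p = 0.778). Slc6a8 differed by -1.66 ± 0.27 (adjusted p = 0.00598), with 0.09 ± 0.19 on LPD (adjusted p = 0.930), and Slc1a5 by -1.55 ± 0.41 (adjusted p = 0.0384).

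**Figure D5:**
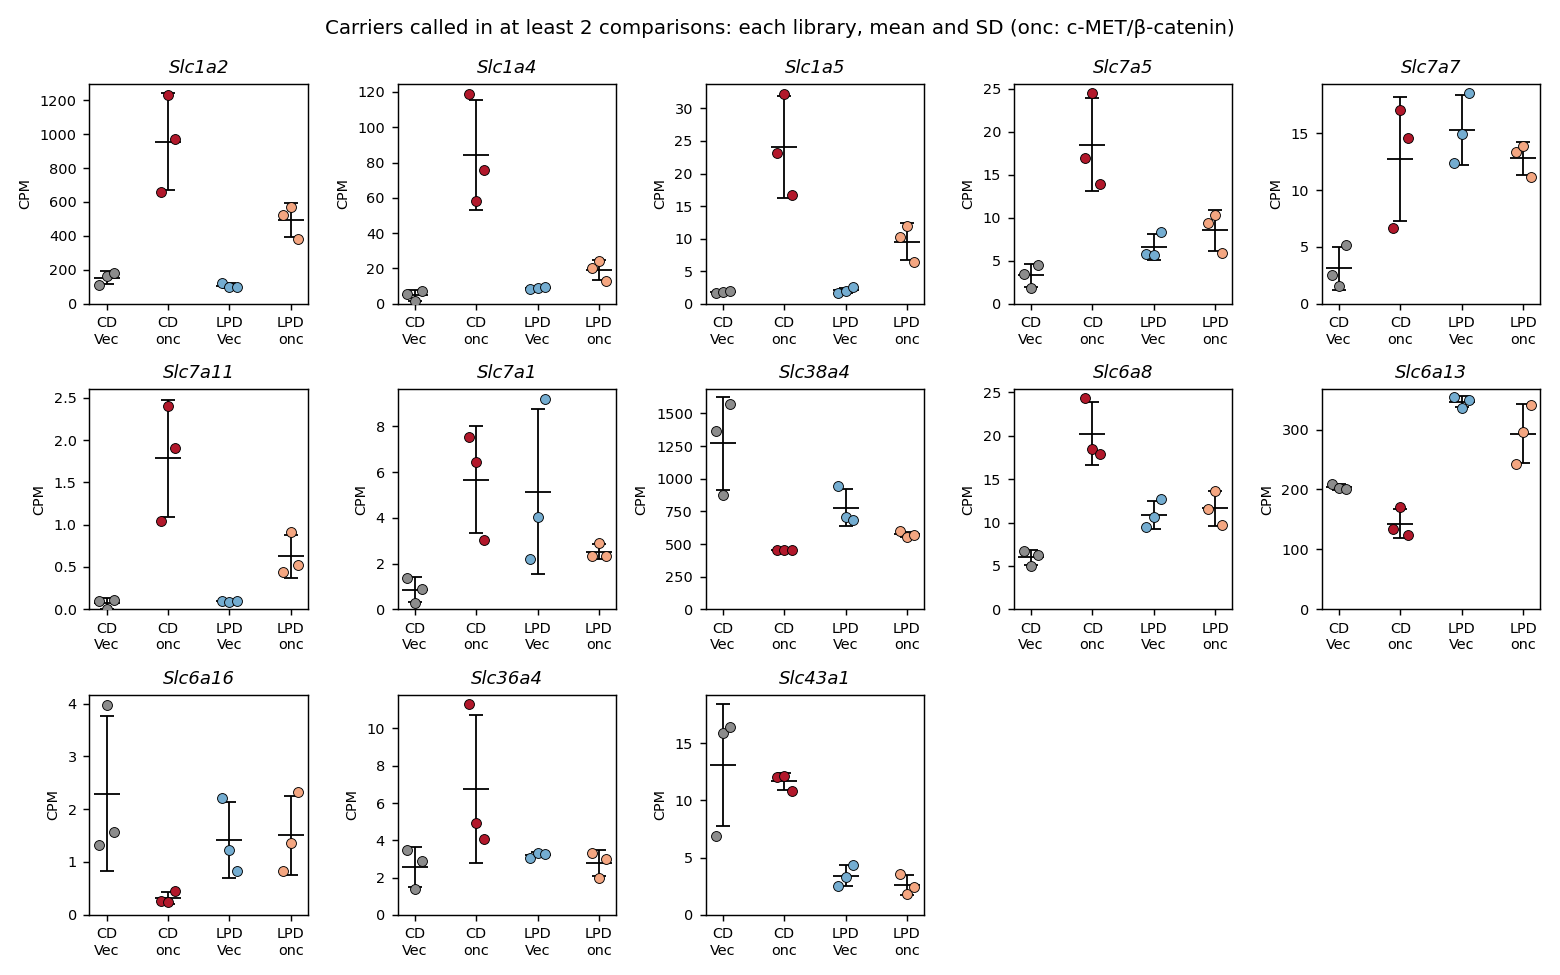
CPM in each library (points), with the mean and SD of the 3 libraries of each group (lines), for the 13 carriers that passed in at least 2 of the 5 comparisons, with onc standing for c-MET/β-catenin. In Slc1a4, Slc7a5 and Slc6a8 the CD onc points lie above all others, whereas Slc7a7 and Slc7a1 are raised in LPD Vec as well.

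These differences have several forms in the library values. In Slc7a7 and Slc7a1 the LPD Vec livers were above the CD Vec livers, and the LPD oncogene libraries lay within or below the LPD Vec range. In Slc1a5 the Vec livers overlapped between the diets, and the LPD oncogene livers lay between them and the CD oncogene livers. In Slc38a4, with a difference of 1.04 ± 0.28 (adjusted p = 0.0413), and Slc6a16, with 2.92 ± 0.77 (adjusted p = 0.0388), the decrease on CD was smaller or without a clear direction on LPD (0.09 ± 0.52 for Slc6a16, adjusted p = 0.981). The differences for Slc1a2 (-0.42 ± 0.35, adjusted p = 0.501), Slc43a1 (-0.22 ± 0.47, adjusted p = 0.807) and Slc7a11 (-1.86 ± 1.01, adjusted p = 0.268) did not pass. Calls of Slc7a1, Slc1a4 and Slc6a8 held without each of the 12 libraries. Those of Slc1a5 and Slc38a4 were lost in 10 of 12 fits (adjusted p up to 0.0983 and 0.118), those of Slc7a7 and Slc6a16 in 7 (up to 0.0762 and 0.0990), and that of Slc7a5 without LPD Vec replicate 3 (0.0541) or LPD oncogene replicate 3 (0.0517). The count was 3 without either of the last-named libraries, 4 without LPD Vec replicate 2 or CD oncogene replicate 2, and 5 without CD Vec replicate 1, CD oncogene replicate 1, or LPD oncogene replicate 1 or 2. With a term for the header runs no interaction passed. The study reports a lower tumor burden in oncogene livers on LPD, and its part in these differences was not tested.

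Other genes of amino acid supply and sensing were described beside the carriers. Of 24 tested genes of the ATF4 response, 16 rose and 2 fell with oncogenes on CD, where 35.4% of all genes passed. Among these were Psat1, an enzyme of serine synthesis, with a log2 fold change of 4.68 ± 0.62 (adjusted p = 0.000251), Trib3, a pseudokinase that restrains ATF4, with 2.17 ± 0.31 (adjusted p = 0.000355), and the mitochondrial folate enzyme Mthfd2 with 3.05 ± 0.45 (adjusted p = 0.000400). With oncogenes on LPD edgeR called 0 of the 24, where 1.32% of all genes passed, 2 had an unadjusted p under 0.05, and DESeq2 called 1. In LPD Vec against CD Vec 4 of them rose (8 with DESeq2), where 0.308% of all genes passed, namely Asns, the asparagine synthetase, from 0.9902 ± 0.717 to 22.4 ± 11.8 CPM (adjusted p = 0.0227), Psat1 (log2 3.91 ± 0.61, adjusted p = 0.0262), Trib3 (1.97 ± 0.31, adjusted p = 0.0262) and Atf5 (1.53 ± 0.18, adjusted p = 0.00987). The interaction passed for 8, all below 0, where 8.91% of all genes passed, including Trib3 (-2.63 ± 0.43, adjusted p = 0.00621), Psat1 (-4.29 ± 0.78, adjusted p = 0.0107) and Asns (-4.28 ± 0.80, adjusted p = 0.0117). With oncogenes, LPD against CD gave 1 higher gene and 2 lower of 24, which is a smaller share than the 20% of all genes.

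Of 13 tested amino acid carriers of other families, 2 rose and 5 fell on CD, where 35.4% of all genes passed. Slc16a10, which lets aromatic amino acids leave the cell, rose from 99.0 ± 14 to 255 ± 51.8 CPM (adjusted p = 0.00196), whereas the mitochondrial ornithine carrier Slc25a15 fell by 1.10 ± 0.19 (adjusted p = 0.00105) and the aspartate and glutamate carrier Slc25a13 by 0.93 ± 0.18 (adjusted p = 0.00196). Of 31 genes of amino acid sensing by mTORC1, 4 rose and 3 fell on CD, a smaller share than the 35.4% of all genes. Rragd, a Rag GTPase, rose by 1.76 ± 0.27 (adjusted p = 0.000512) and in oncogene livers was lower on LPD than on CD by 1.88 ± 0.27 on the log2 scale (adjusted p = 0.00112). Of 15 pericentral and β-catenin target genes other than carriers 11 rose on CD, where 18.7% of all genes rose. With oncogenes on LPD 7 of the 15 rose, where 1.15% of all genes rose. In oncogene livers 8 of the 15 were lower on LPD than on CD, where 11.3% of all genes were. Glul, the glutamine synthetase, measured 875 ± 125 CPM in CD Vec, 7524 ± 1000 CPM in CD c-MET/β-catenin, 1067 ± 132 CPM in LPD Vec and 3497 ± 879 CPM in LPD c-MET/β-catenin. Of 14 periportal genes 12 fell and 1 rose with oncogenes on CD, where 16.7% of all genes fell and 18.7% rose. With oncogenes on LPD, where 1.32% of all genes passed, edgeR called 0, with 1 at an unadjusted p under 0.05 and 1 called by DESeq2. In oncogene livers 7 were higher and 1 lower on LPD than on CD, where 20% of all genes passed. In Vec livers 1 was lower on LPD, where 0.308% of all genes passed, 9 had an unadjusted p under 0.05, DESeq2 called 3 lower, and the median log2 fold change was -1.09. The interaction passed for 9 of the 14, where 8.91% of all genes did, 8 above 0 and 1 below.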

How the data were processed

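RNA was measured in bulk liver, 1 library per mouse, and libraries were grouped by their titles. The authors deposited whole-number read counts per gene without normalization, made by aligning to mm10 with HISAT2 and counting with featureCounts. Tool versions, the strand setting of the counting and the handling of multiply mapped reads are not given in the sources used here, so counts of near-identical or overlapping genes are uncertain. The labels describe depletion of ribosomal RNA and the methods of the study a stranded kit that selects mRNA. Column names call the CD samples HPD, but the titles say chow diet and were followed. Identifiers were matched to symbols for 93.1% of genes with RefSeq GRCm38.p6 and GENCODE M21.

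Counts were tested in R 4.3.3 with edgeR 4.0.16 (TMM factors, filterByExpr, robust quasi-likelihood fit of the 4 groups, no covariate) and Benjamini-Hochberg adjustment over 13947 genes. The error of a log2 fold change is its absolute value over the square root of F. The biological coefficient of variation was 23.2%. CPM are counts scaled to library size and TMM factor (0.864 to 1.12), and RPKM use the GENCODE M21 exon union. The interval of the Slc7a11 ratio is exact binomial. Members called in at least 1 comparison or with a mean of at least 20 CPM were named with values, and those called in at least 2 are given in every library. Other lists are given by counts, with values of the genes of smallest p. Scripts were tested on simulated data. Alternatives were DESeq2 1.42.0, other scaling and filters, fits of the groups compared, a term for the header runs, a replicate block and leaving out each library. Values within the middle header run, as ratios of mean CPM with 0.1 added, were added after seeing the data. Members and lists were chosen with earlier results of these data known, and the motifs after the members' values were known.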

Additional observations from a re-analysis of the deposited data

Results flagged for a closer look

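The oncogene effect differed between diets for 8 carriers by the interaction test of edgeR, where 8.91% of all genes tested passed. The log2 effect on LPD minus the log2 effect on CD was -3.74 for Slc7a1, -3.05 for Slc1a4, -2.28 for Slc7a7, -2.10 for Slc7a5, -1.66 for Slc6a8 and -1.55 for Slc1a5. It was 1.04 for Slc38a4 and 2.92 for Slc6a16. With a term for the header runs 0 of the 8 passed. Tumor burden was lower on LPD by the account of the study, and its part here was not tested. Within the middle header run, where each CD group has 1 library, all 8 had the same sign and 7 were smaller, by over 1.5 times for Slc7a5 (-1.33) and Slc1a5 (-1.02). The calls of Slc7a1, Slc1a4 and Slc6a8 held without each of the 12 libraries, and the other 5 were lost in 2 to 10 of these 12 fits.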

How the results depend on the processing

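No call of a member in the 5 comparisons changed direction under any alternative or when any library was left out, and DESeq2 kept every call. Member counts that moved were, for oncogenes on LPD (2), 5 with DESeq2, 4 with total counts only and 6 in the fit of 2 groups. For diet in Vec (2) they were 7 with DESeq2, 4 with total counts only, 1 with no filter, and 0 in the fit of 2 groups, with the header run term and with the replicate block. The fit of 2 groups kept 16 of 19 calls for oncogenes on CD and 7 of 10 for diet with oncogenes. With the header run term the counts were 7 of 19 for oncogenes on CD, 2 of 10 for diet with oncogenes and 0 of 8 for the interaction. Leaving out 1 library gave 17 to 20, 2 to 4, 0 to 3, 4 to 10 and 3 to 8 calls, in the order of the text. The replicate block gave 18, 2, 0, 9 and 6 calls. Libraries of equal number correlated at -0.183 to 0.167 in their deviations from the group means, and 2 of 12 correlated best with their own number, so the numbers were not taken to pair samples. Total counts without TMM moved the median of all genes to 0.28 with oncogenes on CD, 0.12 on LPD and -0.16 for the interaction, and ended the calls of Slc6a13 on CD and Slc38a4 in the interaction. Members then split into 17 higher and 4 lower on CD and 1 above and 7 below 0 in the interaction, and over all genes higher calls made up 78.8% instead of 52.8% on CD and 29% instead of 50.4% in the interaction. Not all uncalled values are listed for changes of sign. Among those listed, Slc43a1 changed sign with oncogenes on CD (0.13 with total counts only) and in the interaction (0.073 with the header run term). Within the middle run other uncalled values did as well, such as Slc7a6 in the interaction (0.55, against -1.51 in the fit of all libraries). When 1 library was left out, Slc43a1 ranged from -0.47 to 0.0449 on CD and from -0.50 to 0.0773 in the interaction, and on LPD Slc6a8 ranged from -0.0394 to 0.21 and Slc6a16 from -0.35 to 0.55. The causes were not tested. Depth limits Slc7a11, which had at most 2 counts in each Vec library.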

Other observations

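Of the 27 family members under the count minimum, Slc36a2, a proton-coupled carrier of glycine and proline, had 29, 12 and 0 counts in the CD c-MET/β-catenin libraries and 0 to 2 counts elsewhere. Slc7a9, the light chain that pairs with Slc3a1, had 5, 7 and 3 counts in the LPD c-MET/β-catenin libraries and 0 to 2 counts elsewhere. Both were chosen after their values were seen and were not tested.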
